A study of Mus musculus with 12 samples.

Results

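The immunoglobulin variable gene segments were followed in mouse pancreatic tumours. They are the germline cassettes of the heavy chain (Ighv), kappa light chain (Igkv) and lambda light chain (Iglv) loci. A segment was taken where its symbol begins with one of these names and its counts sum to 50 or more over the 12 libraries. That rule kept 164 of 348 variable segment genes, among 52636 genes in all: 86 of 185 Ighv, 75 of 160 Igkv and 3 of 3 Iglv. Of the others, 96 had no count in any library and 88 had between 1 and 49 counts, 1054 counts together. The 164 segments held 102575 counts, which is 99.0% of all counts on variable segments. Because the sum over libraries chose them, a segment that is abundant in a single rich tumour qualifies through that tumour alone. Just outside the limit lay Igkv5-45 with 46 and Igkv5-37 with 43 counts, and just inside it Ighv7-1, Ighv15-1 and Igkv9-123 with 54 counts each.

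The tumours came from KPC mice, in which pancreatic ductal adenocarcinoma is driven by engineered alleles, on a mixed C57BL/6 and 129 background. All mice carried the KPC alleles, and they were wild-type (+/+) or heterozygous (+/-) for Cdh11, the gene of cadherin 11, an adhesion protein of mesenchymal cells. They were untreated or received gemcitabine, a deoxycytidine analogue. Each of the 4 groups had 3 mice, and each library came from a single mouse. The sources used here do not give the single KPC alleles, the make of the Cdh11 allele, the age of the mice, or the dose and schedule of gemcitabine. Cdh11 lay at 224 ± 58.8 CPM (counts scaled to a common library total, mean ± SD, n = 3) in untreated wild-type and 112 ± 37.4 in untreated heterozygous tumours. It was 109 ± 41.7 and 107 ± 34.7 CPM in the treated wild-type and heterozygous tumours, so among treated tumours this gene does not check the labelled genotype. Duct epithelium markers, Krt19 among them, summed to between 3161 and 8912 CPM in all 12 tumours. Library totals lay between 39388328 and 56559413 counts.

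Each B cell assembles each chain of its receptor by joining 1 variable segment to a short joining segment. In the heavy chain only, a short diversity segment lies between them. The heavy and light chain transcripts of the cell thus each carry a single variable segment. The progeny of a cell keep its choice, and plasma cells, which secrete antibody, transcribe the joined gene at very high levels. In a tissue the set of segments in use therefore reflects both which B cell clones are there and how much each transcribes. In bulk RNA fewer cells of a type and less RNA per cell cannot be told apart, and a segment can be shared by many clones.

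All 86 Ighv segments lie on the minus strand of chromosome 12 (chr12:113572927-116010093, GRCm38), and 79 of them are annotated as functional variable genes and 7 as pseudogenes. The 75 Igkv segments, all annotated as functional, lie on both strands of chromosome 6 (chr6:67555497-70704177), and the 3 Iglv segments lie on chromosome 16 (chr16:19085017-19260859). A segment ends with the codon of the conserved cysteine and the few bases that open the third complementarity-determining region, the antigen-contacting loop that the joining step completes. Of 157 functional segments with an annotated coding sequence, 156 had an in-frame cysteine codon in their last 33 bases. The ends of 8 segments that led a tumour or ranked high over all tumours are shown to place this point. Each line gives the last 60 coding bases, 5′ to 3′ in the sense of the gene, from the GENCODE M21 transcripts on GRCm38, with the cysteine codon in capitals.
Ighv5-17: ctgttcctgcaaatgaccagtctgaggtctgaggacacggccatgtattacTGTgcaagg
Ighv6-6: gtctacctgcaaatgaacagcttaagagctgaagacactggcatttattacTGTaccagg
Ighv3-6: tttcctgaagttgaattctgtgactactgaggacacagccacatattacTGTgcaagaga
Ighv1-42: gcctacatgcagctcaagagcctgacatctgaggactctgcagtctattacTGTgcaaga
Igkv1-110: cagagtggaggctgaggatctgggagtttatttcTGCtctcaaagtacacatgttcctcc
Igkv1-117: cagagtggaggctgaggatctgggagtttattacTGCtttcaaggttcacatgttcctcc
Igkv9-124: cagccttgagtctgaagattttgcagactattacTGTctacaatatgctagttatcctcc
Igkv3-1: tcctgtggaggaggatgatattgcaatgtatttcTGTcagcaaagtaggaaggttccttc
Ighv5-17 (chr12:113859149-113859670) had 6 bases after this codon and Igkv1-110 (chr6:68270485-68271267) had 23, so the germline part of the loop is longer in the light chain segments shown. These letters come from the reference, not from the tumours, in which mutation and joining can alter them.

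Variable segment RNA lay between 7.38 and 1203 CPM, and 2 tumours held most of it. The summed level of the segments was 31.8, 97.4 and 13.4 CPM in untreated wild-type mice 1, 2 and 3. In untreated heterozygous mice it was 30.1, 8.55 and 68.1 CPM. Gemcitabine-treated wild-type mice had 22.7, 47.7 and 7.38 CPM. The labelled heterozygous, gemcitabine-treated mice had 30.0, 610 and 1203 CPM. Only mice 2 and 3 of that last group stood above every other tumour, while its mouse 1 lay inside the range of the other groups. Those 2 tumours held 25.5% and 58.5% of all counts on the segments, and 155 of the 164 segments were highest in one of them. Without them 98 of the 164 segments would have reached 50 counts. In the plot of summed levels by locus these 2 tumours are highest for heavy, kappa and lambda segments alike. The lambda segments otherwise had an order of their own: treated wild-type mouse 3, lowest for Ighv and Igkv with 111 and 123 counts, had 74 lambda counts, and treated wild-type mouse 1 had the fewest, 12.

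**Figure D1:**
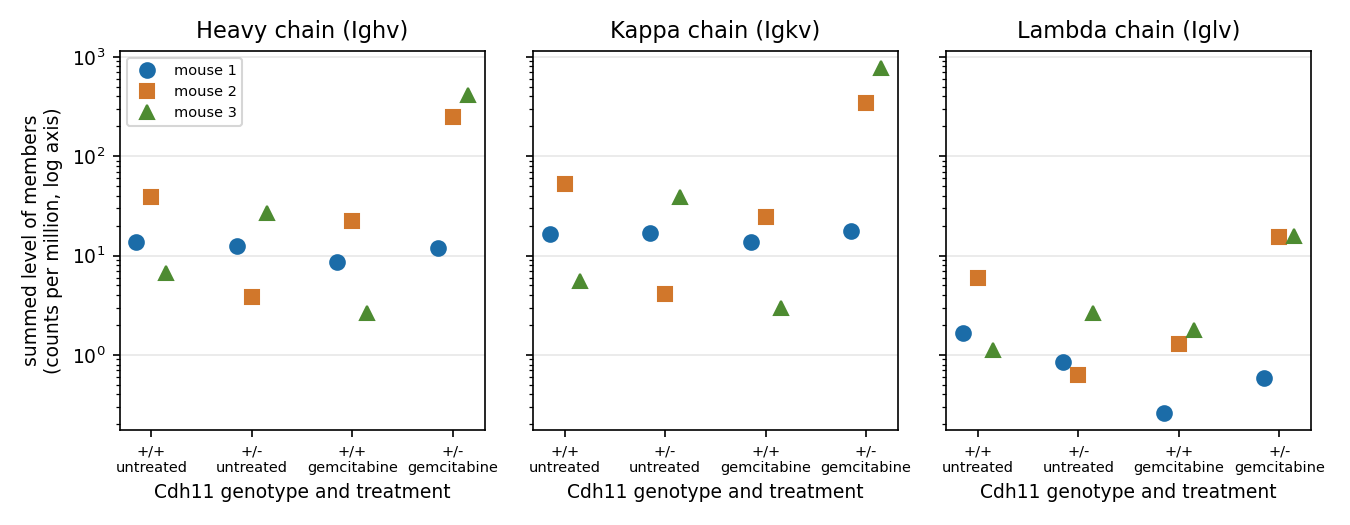
Summed level of the Ighv, Igkv and Iglv segments in CPM (log axis) for each tumour, by Cdh11 genotype and treatment; each point is 1 mouse. Mice 2 and 3 of the heterozygous gemcitabine group lie above all others in each panel, at 248 and 415 CPM for Ighv and 346 and 772 CPM for Igkv.

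The mean level was 47.5 ± 44.2 CPM (SD, n = 3) in untreated wild-type, 35.6 ± 30.1 in untreated heterozygous, 25.9 ± 20.4 in treated wild-type and 614 ± 587 in treated heterozygous mice. In every group the SD was close to the mean. On the log2(CPM + 0.5) scale the heterozygous tumours differed from the wild-type ones by -0.40 without and 3.77 with treatment, and gemcitabine differed from no treatment by -0.77 in wild-type and 3.40 in heterozygous mice. No p-value is given for these sums, since the segments were chosen on their totals. The summed levels of the groups overlapped in all 4 of these comparisons. The difference between untreated genotypes changed sign when 1 mouse was left out, to 0.33 without wild-type mouse 2 and 0.38 without heterozygous mouse 2. That for gemcitabine in wild-type mice was -0.03 without untreated mouse 2 and -0.08 without treated mouse 3.

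Counts on the segments followed those on the constant regions, which close each antibody transcript. Igkv counts were between 0.47 and 0.65 of the Igkc counts in every tumour, and Ighv counts between 0.15 and 0.20 of the heavy chain constant counts. These ratios varied little while the levels varied widely. The isotype, which follows from the heavy chain constant region in use, differed more. Igha, the constant region of the mucosal isotype IgA, made up between 30.7% and 89.2% of the heavy chain constant counts, and it was lowest in treated heterozygous mouse 3. There the IgG genes together held 64.5%, with Ighg1 at 35.1% and Ighg2c at 22.7%, and in mouse 2 of that group IgG held 40.1%. Untreated wild-type mouse 2 had a similar share, with 41.1% IgG and 32.5% Igha. Treated heterozygous mouse 1 had 89.2% Igha and 5.95% IgG. Ighm, the constant region of IgM, ranged from 2.11% to 37.9% and was highest in treated wild-type mouse 2.

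The leading heavy chain segment varied between tumours: 11 different segments led in the 12 tumours. In the untreated wild-type mice these were Ighv7-3 with 13.2% of the Ighv counts (exact 95% interval 10.6 to 16.1), Ighv6-6 with 21.4% (19.4 to 23.4) and Ighv1-5 with 12.3% (9.02 to 16.3). In untreated heterozygous mice Ighv5-17 led with 5.52% (3.78 to 7.74), Ighv3-6 with 22.6% (16.7 to 29.5) and Ighv2-9-1 with 6.90% (5.61 to 8.38). Treated wild-type mice were led by Ighv5-17 with 15.7% (12.2 to 19.6), Ighv1-42 with 14.8% (12.6 to 17.2) and Ighv10-1 with 8.11% (3.77 to 14.8). Only Ighv5-17 led in more than 1 tumour. In treated heterozygous mice the leaders were Ighv2-2 with 6.45% (4.61 to 8.75), Ighv1-66 with 5.80% (5.37 to 6.26) and Ighv1-71 with 15.8% (15.3 to 16.3). The intervals cover counting error only. Some leads were narrow. Ighv5-17 came next with 10.6% in untreated and 7.21% in treated wild-type mouse 3, and Ighv3-6 with 5.16% in untreated heterozygous mouse 1.

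Among kappa segments 10 different ones led. Igkv1-117 led in untreated wild-type mouse 1 with 7.93% and in treated heterozygous mouse 1 with 14.4% of the Igkv counts, and Igkv1-135 led in treated wild-type mice 2 and 3 with 19.4% and 9.76%. In untreated wild-type mouse 1 Igkv6-15 had the same count as Igkv1-117, and in treated wild-type mouse 3 Igkv1-122 had the same count as Igkv1-135. Igkv3-1 led in untreated wild-type mouse 2 with 15.5%, Igkv9-124 in untreated heterozygous mouse 2 with 16.3%, and Igkv4-72 in untreated heterozygous mouse 3 with 12.2%. Igkv8-30 led in untreated wild-type mouse 3 with 7.53%, Igkv10-96 in untreated heterozygous mouse 1 with 8.59% and Igkv5-48 in treated wild-type mouse 1 with 8.87%. The leaders of treated heterozygous mice 2 and 3 were Igkv4-57-1 with 8.13% (7.69 to 8.58) and Igkv3-10 with 17.6% (17.2 to 18.0). When counts were divided by exonic length, the leader stayed the same in 21 of the 24 heavy and kappa cases.

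**Figure D2:**
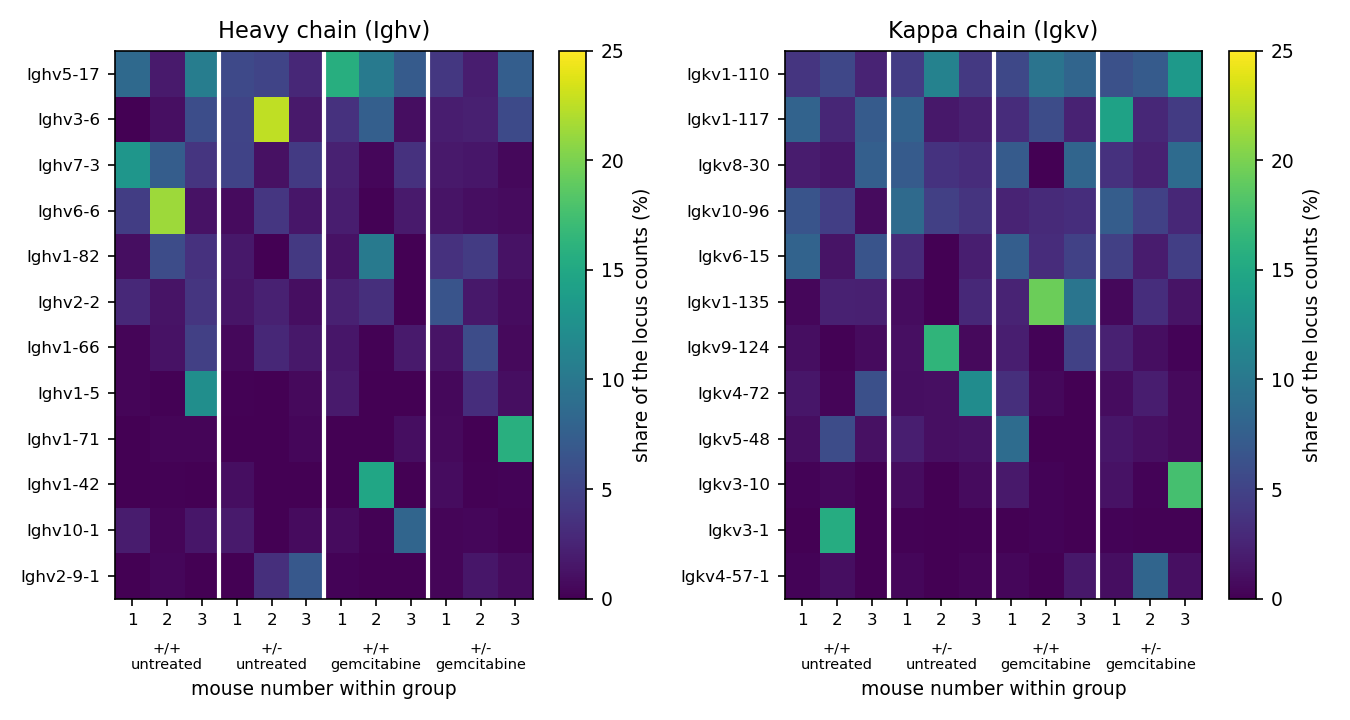
Share of the locus counts (colour, %) held by 12 Ighv and 12 Igkv segments in each of the 12 tumours, in columns by group and mouse. Most bright cells stand alone in their row, such as Ighv6-6 at 21.4% and Igkv3-1 at 15.5% in untreated wild-type mouse 2, while Ighv5-17 and Igkv1-110 are above 1% in all 12 columns.

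Some segments recurred in every tumour. Igkv1-110 had a mean share of 6.78% ± 3.25 (SD over the 12 tumours), was never below 2.51% and was among the 5 leading kappa segments in 10 tumours. Ighv5-17 had a mean share of 6.74% ± 4.09, between 1.79% and 15.7%, and was among the 5 leading heavy chain segments in 8 tumours. Igkv1-117, Igkv8-30, Igkv10-96 and Igkv6-15 followed with mean shares of 5.20%, 4.57%, 4.39% and 3.97%. Igkv1-117 and Igkv10-96 were detected in all 12 tumours, and Igkv8-30 and Igkv6-15 in 11. In all, 19 segments were detected in all 12 tumours, namely 6 Ighv, 12 Igkv and Iglv1, and 20 in 6 tumours or fewer.

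Others were prominent in a single tumour. By a limit set after the values were seen, 16 segments held at least 5% of their locus in 1 tumour and at least 3 times their share in any other. They were spread over 7 tumours. Several rest on few counts in shallow tumours, where shares carry a large counting error. Ighv14-1 had 9 and Ighv14-2 14 counts in untreated heterozygous mouse 2. In treated wild-type mouse 3 Ighv10-1 had 9 and Igkv1-122 12. Igkv4-63 had 16 and Igkv14-100 20 in untreated wild-type mouse 3. Igkv3-1 had 0, 356 and 0 counts in untreated wild-type, 1, 0 and 2 in untreated heterozygous, 0, 3 and 0 in treated wild-type and 2, 28 and 38 in treated heterozygous mice. Its 15.5% in untreated wild-type mouse 2 stood beside at most 0.286% elsewhere. Ighv1-42 had 140 counts in treated wild-type mouse 2, 14.8% of the locus, and at most 0.890% elsewhere. Ighv6-6 had 358 of its 685 counts in untreated wild-type mouse 2, where 4.50% was its next highest share. High mean shares can thus rest on 1 tumour: the mean of Ighv6-6 was 3.35% and its median 1.45%, and that of Ighv3-6 4.86% and 2.88%. Ighv7-3 and Ighv1-82 had mean shares of 3.73% and 3.06%.

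The strongest case by count was treated heterozygous mouse 3. Ighv1-71 had 3271 of its 3292 counts there, and Igkv3-10 had 6769 counts there of 6866 in all. Ighv1-62-2, a near copy of Ighv1-71, had 1086 of its 1176 counts in the same tumour, and both together made up 21.1% of its Ighv counts. Igkv3-5, a near copy of Igkv3-10, had 333 counts there, and both together made up 18.5% of its Igkv counts. The stretches that hold the differences within these pairs are set out because reads from one can align to the other. Bases 1 to 120 are shown for the heavy chain pair and bases 58 to 347 for the kappa pair, of 359 coding bases each, from the GENCODE M21 transcripts on GRCm38. Capitals mark the positions that differ, counted from 1 at the first coding base.
Ighv1-71: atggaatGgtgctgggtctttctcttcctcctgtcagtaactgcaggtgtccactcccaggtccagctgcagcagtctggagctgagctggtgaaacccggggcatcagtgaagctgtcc
Ighv1-62-2: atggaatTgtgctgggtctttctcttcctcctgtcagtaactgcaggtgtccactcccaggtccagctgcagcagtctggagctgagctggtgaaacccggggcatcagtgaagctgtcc
Igkv3-10: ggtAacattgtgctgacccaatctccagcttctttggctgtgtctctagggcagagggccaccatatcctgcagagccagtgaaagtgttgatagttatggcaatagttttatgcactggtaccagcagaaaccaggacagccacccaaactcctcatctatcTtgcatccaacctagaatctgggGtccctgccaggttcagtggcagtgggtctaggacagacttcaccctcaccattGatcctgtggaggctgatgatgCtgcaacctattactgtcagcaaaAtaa
Igkv3-5: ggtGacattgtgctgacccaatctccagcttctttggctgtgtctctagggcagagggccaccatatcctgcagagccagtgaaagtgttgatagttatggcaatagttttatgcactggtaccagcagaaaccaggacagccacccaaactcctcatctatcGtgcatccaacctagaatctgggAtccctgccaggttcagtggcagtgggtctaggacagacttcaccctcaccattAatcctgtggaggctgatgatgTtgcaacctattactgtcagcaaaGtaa
Ighv1-71 (chr12:115742205-115742647) and Ighv1-62-2 (chr12:115446409-115446869) differ by G8T alone in 359 coding bases, which lies near the start of the leader. Igkv3-10 (chr6:70572633-70573230) and Igkv3-5 (chr6:70663275-70663895) differ by A61G, T221G, G244A, G298A, C320T and A344G. The counting method divides a read that fits several genes by estimated shares, so the split within a pair is uncertain, most of all for Ighv1-71. Over all segments, 84 of the 164 had another member with at least 95% identity across at least 80% of the shorter transcript, in 31 clusters of up to 8 segments.

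The diversity of segments was summarised as an effective number, the exponential of the Shannon entropy, which is the number of equally used segments that would give the same evenness. For Ighv it was 39.7, 33.4 and 27.1 in untreated wild-type mice and 53.5, 23.1 and 49.7 in untreated heterozygous mice. It was 36.4, 21.7 and 30.5 in treated wild-type and 49.4, 55.7 and 35.8 in treated heterozygous mice. The lowest value of the treated heterozygous group lay just below the highest of the treated wild-type group. For Igkv the values were 40.0, 30.8 and 28.5 in untreated wild-type, 39.0, 21.4 and 41.5 in untreated heterozygous, 35.7, 23.1 and 22.4 in treated wild-type and 34.1, 42.6 and 27.2 in treated heterozygous mice. All groups overlapped. Which group mean was higher turned on single mice in some comparisons: in heterozygous mice the gemcitabine difference of 4.87 in the Ighv number became -4.61 without untreated mouse 2, and in wild-type mice that of -3.83 became 0.11 without treated mouse 2.

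The effective number rises with the number of counts, and the Ighv counts lay between 111 and 20698. After each tumour was thinned to 111 Ighv counts, the group means were 26.0 ± 3.98 (SD, n = 3) in untreated wild-type, 32.3 ± 9.89 in untreated heterozygous, 26.0 ± 7.14 in treated wild-type and 33.5 ± 7.08 in treated heterozygous mice. The difference of the treated groups was 17.4 with all counts and 7.52 after thinning. It was 4.68 after segments of 95% identity or more were merged, and -1.26 when segment families were the units counted. There are 54 merged units and 14 families against 86 segments. The effective number cannot exceed the number of units, so these differences are on unlike scales. For Igkv, thinned to 123 counts, the means were 27.1 ± 4.30, 27.5 ± 6.55, 23.7 ± 5.10 and 26.5 ± 5.36 in the same order.

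**Figure D3:**
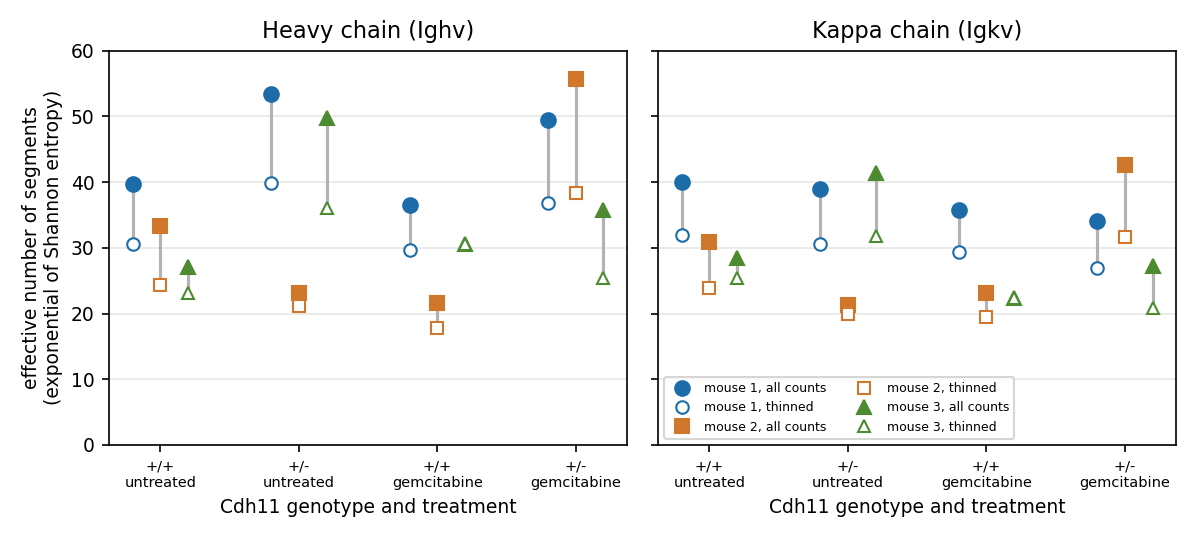
Effective number of Ighv (left) and Igkv (right) segments for each tumour by group, from all counts (filled symbols) and after thinning to 111 Ighv or 123 Igkv counts (open symbols); each symbol shape is a mouse number. The filled Ighv symbols span 21.7 to 55.7 and the open ones 17.8 to 39.8, and the groups overlap in both panels.

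The tumours with the most segment RNA were not alike in evenness. Treated heterozygous mouse 2 was among the most even, with 23.9% of the Ighv counts in its 5 leading segments and 16 segments needed for 50% of them; untreated heterozygous mouse 1 had 23.8%. In mouse 3 of the same group the 5 leading segments held 43.4% and 7 sufficed. Treated wild-type mouse 2 and untreated heterozygous mouse 2 had the highest Ighv shares, with 53.6% and 45.2% in the 5 leading segments, and for Igkv they had 47.9% and 50%. The highest Igkv share, 51.3%, was that of treated heterozygous mouse 3. These shares ranged from 23.8% to 53.6% for Ighv and from 29.1% to 51.3% for Igkv over the 12 tumours.

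Segments fall into families of similar sequence, named by the first number in the symbol. Ighv1, the largest heavy chain family, supplied 43 of the 86 Ighv segments and a median of 43.9% of the Ighv counts, between 23.2% in untreated heterozygous mouse 2 and 58.3% in treated heterozygous mouse 2. Ighv5 followed with 8 segments and a median of 11.6%, and it reached 25.8% in treated wild-type mouse 1. Among kappa families Igkv4, with 19 segments, had a median of 15.6% and Igkv1, with 6 segments, one of 14.5%. Igkv1 reached 35.4% of the counts in treated wild-type mouse 2, where Igkv1-135 led, and Igkv4 to 26.4% in untreated heterozygous mouse 3, where Igkv4-72 led.

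By distance from the joining segments, the 29 nearest Ighv segments, between 143 and 728 kb away, held a mean of 37.9% of the Ighv counts, the 28 in the middle 31.2% and the 29 farthest 30.9%. In treated wild-type mouse 1 the nearest 29 held 58.3%, with Ighv5-17 among them, and in treated heterozygous mice 2 and 3 they held 22.4% and 30.7%. The Igkv locus had another profile, with 34.9% of its counts in the nearest 25 segments, 21.9% in the next 25 and 43.3% in the farthest 25.

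Lambda chains are a minor light chain class in mice. The 3 Iglv segments held between 1.87% and 17.0% of the light chain segment counts in 11 tumours and 37.6% (exact 95% interval 30.8 to 44.7) in treated wild-type mouse 3, where all 74 lambda counts were on Iglv1. Iglv1 made up a mean of 78.4% of the lambda counts. Untreated wild-type mouse 2 was the only tumour in which Iglv2 led, with 163 of 257 counts or 63.4%. Iglv1 and Iglv2 are 97.0% identical, so the split of reads between them is uncertain. Iglv3 was highest, at 31.8%, in untreated heterozygous mouse 3.

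Usage was compared between tumours with the Morisita index, which is 0 without shared segments and about 1 for the same usage and corrects for the number of counts. Over the 66 pairs of tumours it lay between 0.21 and 0.75 for Ighv, with a median of 0.45, and between 0.24 and 0.85 for Igkv, with a median of 0.49. Pairs of the same group had medians of 0.48 and 0.50. The 6 pairs of tumours that are numbered 1 in their groups had 0.53 to 0.75 for Ighv and 0.63 to 0.85 for Igkv, with medians of 0.67 and 0.75. The highest value among the other 60 pairs was 0.69 for Ighv and 0.67 for Igkv. The labels give no meaning to a number shared between groups, and tumours numbered 2 or 3 showed no such likeness, with Ighv medians of 0.33 and 0.45. Ighv15-1, a pseudogene, had 11, 14, 14 and 13 counts in the tumours numbered 1 and 2 counts in the other 8 together. By CPM it was the only member above all other tumours in all those numbered 1, and 57 of 25884 genes with 50 or more counts (0.220%) showed that pattern, against 24 and 18 for the numbers 2 and 3. By share of the locus Igkv6-25 showed it too for number 1, and Ighv8-12 did for number 2.

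**Figure D4:**
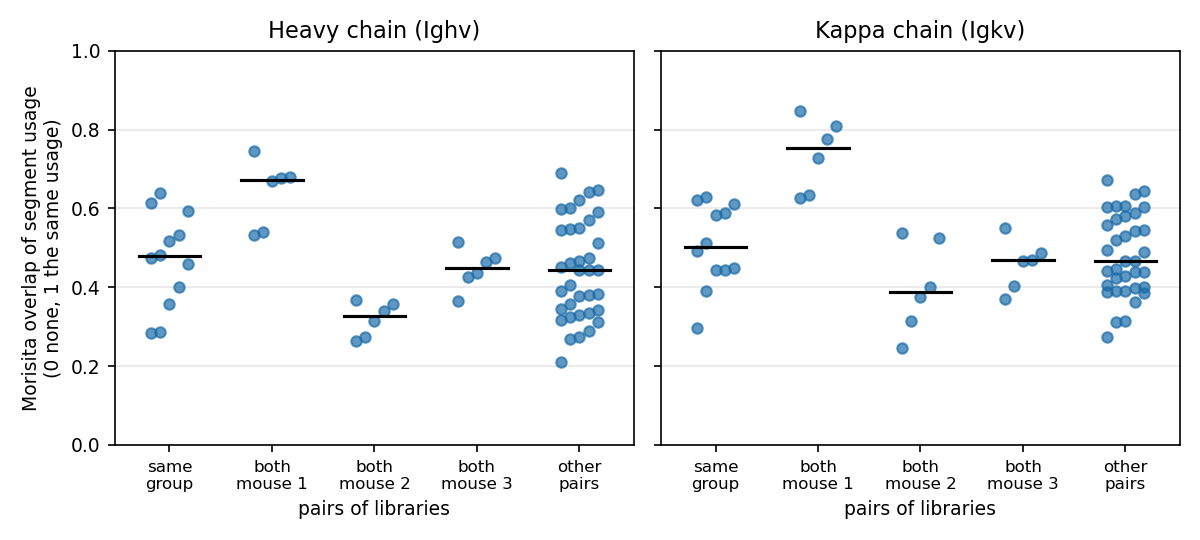
Morisita overlap of Ighv (left) and Igkv (right) usage for pairs of tumours, sorted into pairs of the same group, pairs sharing mouse number 1, 2 or 3 across groups, and other pairs; each point is a pair and bars are medians. Pairs numbered 1 have medians of 0.67 and 0.75, above the medians of 0.48 and 0.50 of the same-group pairs.

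Single segments were tested with edgeR's quasi-likelihood test over all 24065 genes that passed the filter on low counts. The filter kept 139 of the 164 segments; Ighv1-71 and Ighv1-62-2 were among the 25 left out. A member can pass both this filter and the sum of 50 through the tumours in which it is high, so counts of members are given as a description beside the share of all genes and nothing is read from them. At an adjusted p under 0.05 no segment passed in any of the 7 comparisons.

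In gemcitabine-treated mice the labelled heterozygous tumours had higher estimates than the wild-type ones for 137 of 139 segments, and 46.9% of all genes had higher estimates. The median log2 fold change was 4.59 over the segments and -0.03 over all genes; with the 10 segments that had no count in the treated wild-type group set at their lower bound, the median was 4.44. None of the segments passed (0.00416% of all genes did), while 108 were higher and 0 lower at an unadjusted p under 0.05, against 4.66% and 2.89% of all genes. The groups did not overlap, with the heterozygous tumours higher, for 49 segments, and for 7.12% of all genes; they did not overlap in the other direction for 0 segments and for 6.59% of all genes. DESeq2 called 56 of 140 segments, all higher, beside 0.754% of all genes higher. Most segments, 155 of the 164, were highest in treated heterozygous mouse 2 or 3. Without both a single mouse would remain in the group, so no count is given for that setting.

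Ighv1-78 had the smallest p. It had 1, 0 and 0 counts in treated wild-type and 10, 107 and 123 in treated heterozygous mice, a log2 fold change of 7.38 ± 1.43 (SE; edgeR adjusted p = 0.544). All 3 heterozygous tumours were above all 3 wild-type ones, and mice 2 and 3 were far above mouse 1. Ighv1-72 had 2, 1 and 5 against 15, 575 and 528 counts, with a log2 fold change of 6.97 ± 1.44 (edgeR adjusted p = 0.546). Ighv1-72 has a near copy, Ighv1-62-3, at 99.2% identity with 9 counts in all. Igkv3-2 had no count in the treated wild-type tumours and 12, 683 and 722 in the heterozygous ones, so it was at least 148-fold higher against a floor of 3 counts per library (edgeR adjusted p = 0.546). The 2 segments with lower estimates were Ighv1-42, at -1.12, and Ighv15-1, at -0.22. Ighv1-42 was carried by the 140 counts of treated wild-type mouse 2.

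In heterozygous mice gemcitabine-treated tumours had higher estimates than untreated ones for 138 of 139 segments (46.8% of all genes), with a median log2 fold change of 3.75. This comparison shares the treated heterozygous tumours with the one above. None passed in edgeR (0.00831% of all genes did); 92 were higher and 0 lower at an unadjusted p under 0.05, against 4.42% and 3.48% of all genes, and the groups did not overlap for 27, all higher (6.64% of all genes higher and 6.08% lower). DESeq2 called 28 of 158, all higher, beside 0.476% of all genes. No count is given without treated heterozygous mice 2 and 3 together, since a single mouse would remain in that group. The 92 became 47 without treated mouse 3, 57 without treated mouse 2 and 61 without untreated mouse 2. Igkv14-126 had 0, 0 and 3 counts in untreated and 13, 88 and 105 in treated heterozygous tumours, with a log2 fold change of 5.98 ± 1.13 (edgeR adjusted p = 0.525). Here mouse 1 also stood above the untreated tumours. Ighv1-78 (2, 0 and 3 counts untreated) followed at 5.52 ± 1.21 and Igkv5-39 at 5.12 ± 1.24 (edgeR adjusted p = 0.593 for each). Igkv5-39 had 5, 1 and 11 counts in untreated and 20, 237 and 330 in treated heterozygous tumours.

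In wild-type mice most estimates were lower with gemcitabine. The segments share the same tumours, and their summed log2 level differed by -0.03 when untreated mouse 2 was left out. With gemcitabine 102 of 139 segments had lower and 35 higher estimates (51% of all genes had higher ones), and the median log2 fold change was -1.15, or -0.94 with the 9 segments that had no count in 1 of the groups set at their bounds. None passed in edgeR (0% of all genes did); 11 were lower and 1 higher at an unadjusted p under 0.05, against 4.55% and 4.05% of all genes. These 12 became 4 without untreated wild-type mouse 2 and 23 without treated heterozygous mouse 1. The latter is in neither group, but all groups share the filter, the scaling and the spread. Which of these moved the count was not tested. The groups did not overlap, with the treated tumours lower, for 9 segments (7.17% of all genes), and with them higher for 1 (6.53%). DESeq2 called 1 of 125, Ighv6-6, lower (0.255% of all genes). Ighv6-6 had 28, 358 and 4 counts in untreated and 8, 1 and 2 in treated mice, with a log2 fold change of -5.12 ± 1.64 (edgeR adjusted p = 0.559). The groups overlapped, and the estimate rests on untreated mouse 2. Ighv7-1, with 15, 13 and 0 counts untreated and none treated, was at least 3.04-fold lower. Igkv8-21 had 32, 34 and 7 against 3, 2 and 0 counts, with a log2 fold change of -3.74 ± 1.28, and its groups did not overlap. The only segment with a higher estimate at an unadjusted p under 0.05 was Ighv1-42, at 5.97, carried by treated mouse 2.

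In untreated mice the estimates for heterozygous against wild-type tumours went in both directions. There were 62 segments with higher and 77 with lower estimates (53.7% of all genes had higher ones), and the median log2 fold change was -0.25, against 0.04 for all genes. None passed in edgeR (0.0166% of all genes did); 3 were higher and 4 lower at an unadjusted p under 0.05, against 5.51% and 6.65% of all genes. These 7 became 19 without treated heterozygous mouse 1. The groups did not overlap for 3 segments with heterozygous tumours higher (7.36% of all genes) and 5 with them lower (8.41%). DESeq2 called 1 of 148, Ighv5-12, lower (1.64% of all genes). Ighv5-12 had 7, 8 and 6 counts in wild-type tumours and none in heterozygous ones, at least 2.40-fold lower. Ighv1-11 had 11, 7 and 2 against 0, 0 and 1 counts, with a log2 fold change of -3.95 ± 1.29 (edgeR adjusted p = 0.276). Igkv3-1 was at -6.85 ± 2.45 (edgeR adjusted p = 0.309) through the 356 counts of wild-type mouse 2. Among the higher estimates, Igkv9-124 had 7, 3 and 2 counts in wild-type and 8, 31 and 13 in heterozygous tumours, and its levels did not overlap, with a log2 fold change of 2.04 ± 0.89 (edgeR adjusted p = 0.391). Igkv8-19 had 7, 5 and 1 against 25, 1 and 83 counts, at 2.92 ± 1.19 (edgeR adjusted p = 0.359), and its groups overlapped. Ighv15-2, with no count in wild-type and 10, 0 and 12 in heterozygous tumours, was at least 2.35-fold higher.

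**Figure D5:**
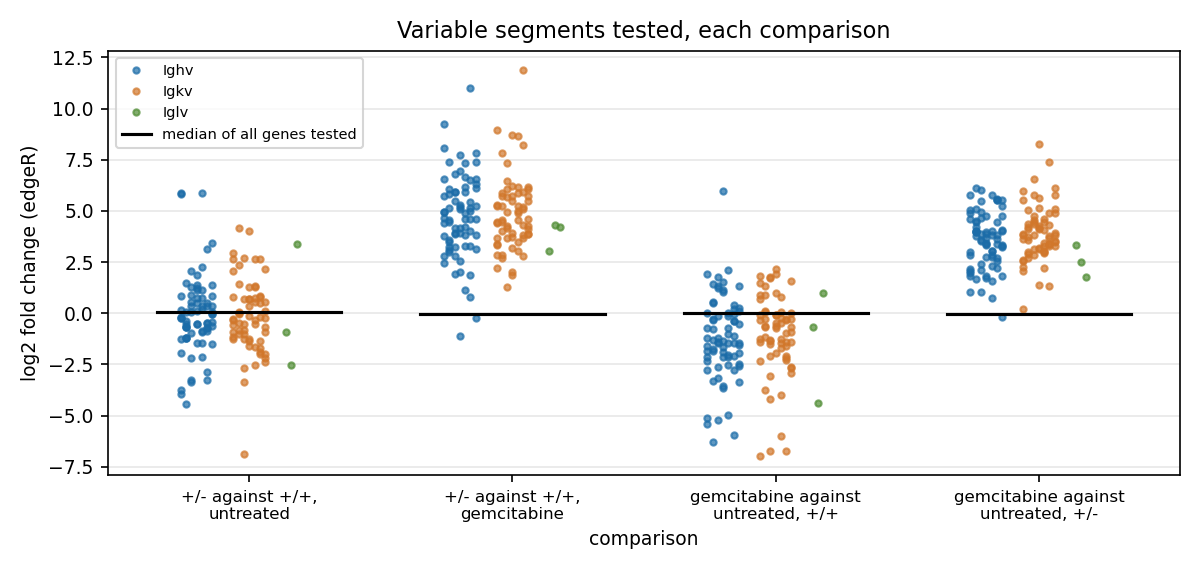
Log2 fold changes from edgeR of the 139 segments tested in 4 comparisons; each point is a segment, coloured by locus, and black lines are the medians of all genes tested. Nearly all points lie above the line where treated heterozygous tumours are compared, with medians of 4.59 and 3.75, and no point passed the threshold.

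The gemcitabine effect was tested for a difference between genotypes. No segment passed in edgeR (0.00831% of all genes did), with 69 higher and 0 lower at an unadjusted p under 0.05 against 7.14% and 5.52% of all genes, and a median difference of 4.71. DESeq2 called 34 of 119, all higher (2.02% of all genes). Ighv1-78 had the smallest p, with a difference of 8.88 ± 1.89 (edgeR adjusted p = 0.252), followed by Ighv1-4 at 8.12 ± 1.91. For the genotype averaged over treatments none passed in edgeR (0.0332%), 67 were higher and 0 lower at an unadjusted p under 0.05 (3.7% and 3.96% of all genes), and DESeq2 called 20 of 158, all higher (0.557%). Igkv9-124 led there, at 2.72 ± 0.62 (edgeR adjusted p = 0.278). For gemcitabine averaged over genotypes none passed in edgeR (0.00831%), 27 were higher and 0 lower (2.25% and 2.2%), and DESeq2 called 1 of 148, Igkv14-126 (0.0731%), at 3.72 ± 0.76 in edgeR (adjusted p = 0.942). All 3 contain the treated heterozygous tumours. Without treated heterozygous mouse 1 the 67 became 101 and the 27 became 54. The 67 became 44 without untreated heterozygous mouse 3, and the 27 became 13 without treated heterozygous mouse 3 and 41 without untreated wild-type mouse 2.

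Genes of the same cells were read from lists of textbook markers, and none passed over all genes. In the comparison of treated tumours by genotype, all 13 genes of the list of 12 constant regions and Jchain, which joins IgA and IgM units, had higher estimates, with a median log2 fold change of 4.21. Ighg2c was at 8.67 ± 2.02, Igkc at 4.87 ± 1.36 and Igha at 3.63 ± 0.96 (edgeR adjusted p = 0.546 for each). Of 12 B cell genes 11 were higher, with a median of 2.91, and Ms4a1, the CD20 gene, was at 3.92 ± 1.22 (edgeR adjusted p = 0.546). Of 11 plasma cell genes tested 9 were higher, with a median of 1.10. The summed level of this list, which holds genes such as Sdc1 that epithelium also transcribes, lay between 631 and 1033 CPM and was not highest in these tumours. Mzb1, a chaperone of antibody-secreting cells, had 8, 19 and 2 counts in treated wild-type and 4, 224 and 474 in treated heterozygous mice.

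The summed B cell markers placed the tumours in another order than the segments did. They were highest in treated heterozygous mouse 2, at 99.6 CPM, with mouse 3 at 63.8 CPM and the other 10 tumours between 7.36 and 30.2 CPM. The segments were highest in mouse 3, and its IgG share was the highest too. Markers of lymphoid tissue and follicles, such as Cr2 and Ccl19, summed to 72.1 and 71.9 CPM in these mice and to between 5.59 and 58.5 CPM elsewhere, and all 10 had higher estimates in the treated heterozygous tumours, with a median of 1.96. Ccl21a was the largest of them in mice 2 and 3, at 23.0 and 31.4 CPM. Not all were highest there: Cxcl13 was at 5.43 and 18.1 CPM, and at 19.1 CPM in untreated wild-type mouse 2. T cell markers summed to 23.6 and 20.4 CPM in mice 2 and 3 and to between 1.42 and 12.7 CPM elsewhere. Duct epithelium markers were lower for 7 of 8 genes, with a median of -0.55. The part of included lymphoid tissue in the segment counts was not tested.

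Genes of recombination were near 0 throughout. Rag1 and Rag2, the enzymes that join the segments, had at most 2 and 3 counts in a tumour, and Dntt, which adds bases at the joint, at most 4. Sex chromosome genes also differed between the treated groups. All 3 treated wild-type tumours had Xist between 1322 and 3569 CPM and Y-linked genes near 0. The 3 treated heterozygous tumours had Xist at or below 1.12 CPM and Uty between 64.0 and 138 CPM. Sex and labelled genotype cannot be told apart among treated tumours. The untreated groups were mixed. Untreated wild-type mice 1 and 3 had Xist at 2816 and 2655 CPM. Mouse 2 of that group had 0.807 CPM, with Uty at 46.9 CPM. Untreated heterozygous mouse 1 had Xist at 2017 CPM. Mice 2 and 3 of that group had 1.64 and 1.37 CPM, with Uty at 45.3 and 8.64 CPM. The share of each sex thus differed in every comparison of groups, and its part in the differences was not tested.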

How the data were processed

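Gene expression was measured by RNA sequencing of 12 tumours, 1 library per mouse, and groups and mouse numbers were taken from the sample titles. The authors deposited whole-number expected counts, made with RSEM on GRCm38 and listed by Ensembl gene, per the submitters' processing notes and the values. The sources used here do not give the RSEM version, the annotation release, the strand setting or whether reads shared by several genes were filtered, so reads of near-identical or overlapping segments may be divided wrongly. Mutated segments, and 129 alleles in these mice of mixed background, may align less well to the C57BL/6 reference or to other segments, which bears on the shares of single segments, and no clone can be read from counts per gene. Totals lay between 39388328 and 56559413 counts per library.

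The members, gene lists and named segments were chosen with earlier results of these data known. Symbols, positions and coding sequences came from GENCODE M21 (GRCm38). Counts were read as deposited and were already whole. Genes were filtered with filterByExpr, which kept 24065 genes and 139 of the 164 members, and scaled with TMM (factors 0.897 to 1.09). Tests were edgeR 4.0.16 quasi-likelihood tests in R 4.3.3, with 1 fit over the 4 groups and Benjamini-Hochberg adjustment over all genes tested. The common biological coefficient of variation was 46.4%. The code was tested on simulated data. P-values measure the spread between mice. Levels are TMM-scaled CPM, and log2 levels use a pseudocount of 0.5 CPM. Shares carry exact Clopper-Pearson intervals, which cover counting error only. Identity was measured with blastn 2.17.0, and other values with numpy 2.4.6, scipy 1.17.1 and pandas 2.3.3. The segments named were the leader of each tumour, the 5 Ighv and 5 Igkv segments of highest mean share, every Iglv segment, up to 3 per direction with the smallest p in a comparison, and those next to the limit of 50 counts; of the other lists, the constant regions and up to 3 genes with the smallest p. Near copies, segments prominent in 1 tumour, those called by DESeq2 and some markers were named after their values were seen. Alternatives were DESeq2 1.42.0, its size factors in edgeR, no filter, a limit of 500 counts, thinning, families, merged segments, each mouse left out, and the mouse number as a block.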

Additional observations from a re-analysis of the deposited data

Results flagged for a closer look

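In 7 of the 164 segments (4.27%) the groups did not overlap and stood in opposite order in the strata of the other factor, and so they did in 534 of 25884 genes with 50 or more counts (2.06%). No test of this count was made, and nothing is read from it. The values are differences of log2(CPM + 0.5) of group means. For Ighv2-2 heterozygous tumours lay below wild-type ones without treatment (0.167 against 0.387 CPM) and above them with it (2.72 against 0.314), a difference of 2.39. For Ighv1-11 the same held, with 0.00662 against 0.148 CPM and then 0.237 against 0.0317, a difference of 0.826. Ighv1-4 showed this order for both factors, from 0.296 to 0.0437 CPM with gemcitabine in wild-type and from 0.062 to 2.91 in heterozygous mice, a difference of 3.15. Opposite orders under gemcitabine were found for Ighv1-80 with 2.82, Igkv8-21 with 2.73, Igkv14-100 with 1.74 and Ighv5-12 with 0.812. Igkv8-21 went from 0.543 to 0.0374 CPM in wild-type and from 0.268 to 2.12 in heterozygous mice. All the segments named here but Ighv2-2 had a treated wild-type mean below 0.0691 CPM. That is the floor of 3 counts per library in this group, so their order rests on few counts. In edgeR the difference of the gemcitabine effects had an adjusted p of 0.252 for Ighv1-4, Ighv1-11, Ighv1-80 and Igkv8-21, 0.277 for Igkv14-100 and 0.284 for Ighv2-2, so none passed, and the difference was not tested for Ighv5-12. In each of the 7 segments treated heterozygous mice 2 and 3 lay above mouse 1.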

How the results depend on the processing

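edgeR called 0 segments in each of the 7 comparisons also with DESeq2 size factors, with no filter on low counts, with only members of 500 or more counts, and without each mouse in turn (0 to 0). DESeq2's Wald test called 1 segment for genotype in untreated mice, 56 for genotype in treated mice, 1 and 28 for gemcitabine in wild-type and heterozygous mice, 34 for the difference of the gemcitabine effects, 20 for genotype averaged over treatments and 1 for gemcitabine averaged over genotypes; the cause was not tested. Deviations of same-numbered tumours correlated between -0.25 and 0.17, and 3 of the 12 tumours correlated best with their own number, so these correlations showed no pairing. They cover all 3 numbers and do not exclude a likeness among tumours numbered 1. Segment usage was more alike there, with Morisita medians of 0.67 for Ighv and 0.75 for Igkv. With mouse number as a block edgeR called 0 in each comparison, and segments at an unadjusted p under 0.05 went from 7 to 2, 108 to 92, 12 to 11, 92 to 58, 69 to 55, 67 to 46 and 27 to 16, in the order above. Treated heterozygous mice 2 and 3 were also left out together, an alternative chosen after seeing the data. It removed the tumours richest in segment RNA and left a single mouse in their group. It cannot test the segments, and its counts are not given. For Ighv, the difference in effective number by genotype in treated mice went from 17.4 to 7.52 after thinning, to -1.26 with families as units and, in an alternative chosen after seeing the data, to 4.68 with near-identical segments merged; it lay between 13.1 and 23.0 without single mice. Families and merged units are fewer than segments, so their differences are on other scales. The other Ighv ranges without single mice were 3.04 to 18.2 (genotype, untreated), -7.28 to 0.11 (gemcitabine, wild-type) and -4.61 to 10.5 (gemcitabine, heterozygous). For Igkv they were -2.93 to 7.12 and 3.62 to 11.9 for genotype in untreated and treated mice, and -10.3 to -2.58 and -5.56 to 4.48 for gemcitabine in wild-type and heterozygous mice. The log2 differences of the summed level were -1.08 to 0.38, 2.72 to 5.37, -1.44 to -0.03 and 2.35 to 5.01 in that order. All other settings for these 3 measures, a pseudocount of 5 CPM, inverse Simpson and counts per exonic length (chosen after seeing the data) among them, moved a difference by less than 1 SD. In the shallowest tumours, with 111 Ighv or 123 Igkv counts, segments of low share cannot be told from absent ones.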
